A study of Rattus norvegicus with 36 samples.

Results

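Scavenger receptors are surface proteins with which macrophages bind modified lipoproteins, dying cells, bacteria, and bare mineral particles. The 10 genes described here were chosen by name: Marco and Msr1 (class A receptors with a collagen-like stalk), Cd36 and Scarb1 (class B receptors), Cd68 (a lysosomal receptor used to stain macrophages), Olr1 (a lectin-like receptor of oxidized lipoprotein), Cd163 and Cd5l (proteins built of scavenger receptor cysteine-rich domains), and Stab1 and Mrc1 (large endocytic receptors). The choice was made with earlier results of these data known. The genes are represented by 14 of the 45598 probes and 10 of the 25597 gene names on the array, and all 14 probes passed the filter on low signals. Cd5l is a secreted protein and Mrc1 a mannose-binding lectin, and both are counted with the family because they share its ligands or its domains. In the lung, alveolar macrophages take up inhaled silica largely through Marco, with Msr1 as a second receptor of the same class, and particles that cannot be digested stay in the lysosomes that carry Cd68.

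The RNA came from the accessory lobe of the lungs of female Sprague Dawley rats, which were 13 weeks old when treated. A single intratracheal instillation gave 10 mg per rat of DQ-12, a crystalline quartz dust used as a fibrosis-inducing positive control, and vehicle rats received saline alone. Both groups were sampled at D1, D30, and D180 with 6 rats each and 1 single-color Agilent array per rat, 36 in all. Values are log2 signals after quantile normalization, they are comparable between rats for one probe only, and an adjusted p is the Benjamini–Hochberg value of limma over all 23940 genes tested. A gene was called (a DEG) where its adjusted p was under 0.05 and its fold change, FC, reached 2.

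The arrays had 51.4 to 75.5% of their probes well above background, with both extremes at D180 (DQ-12 replicate 5 and vehicle replicate 6), and leaving out either rat left 4 of these genes called at D30 and at D180. Surfactant and other lung tissue markers were measured on every array, and 4 of the 8 passed an adjusted p under 0.05 at D180. Of these 2 were higher and 2 lower, against 7.82% and 9% of all genes, and the median change of the 8 was −0.05. Arrays were scanned on 11 dates. At D1 a single vehicle rat shared a date with the DQ-12 rats, at D30 both of the dates held both groups, and at D180 the groups shared 2 dates. In pieces of whole tissue, fewer or more cells of a type and less or more RNA per cell cannot be told apart.

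The probe sequences show which stretch of each transcript was read. The Marco probe lies in the collagen-like stalk, where glycine codons, in capitals below, recur with 2 codons between them (7 in this probe). The second Msr1 probe reads the coiled-coil part of the stalk and the Cd163 probe the tail inside the cell, and both coding sequences are shown without capitals.
Marco, probe A_44_P175833: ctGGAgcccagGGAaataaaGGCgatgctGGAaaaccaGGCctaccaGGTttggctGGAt
Msr1, probe A_44_P928825: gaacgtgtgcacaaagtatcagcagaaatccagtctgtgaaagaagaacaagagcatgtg
Cd163, probe A_64_P053012: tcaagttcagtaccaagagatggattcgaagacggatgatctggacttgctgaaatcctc

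DQ-12 raised 4 of the 10 genes at both late times, Marco, Msr1, Cd68, and Cd5l, while Cd163 moved the other way at D180. At D1, 0 of the 10 were called, against 2.02% of all genes called higher. At D30 4 of 10 were called higher against 0.915% of all genes, and at D180 4 of 10 against 2.86%. The genes were chosen with earlier results of these data known, and Marco and Msr1 are on the study's list from these rats. The counts in this paragraph are therefore descriptions and not a test of the family. On adjusted p alone, Msr1 was higher at D1 (7.58% of all genes), the same 4 genes at D30 (2.74%), and Marco, Msr1, Cd68, Cd5l, and Scarb1 at D180 (7.82%), where Cd163 was the 1 gene lower (9% of all genes). The median log2 FC over the 10 genes was −0.02 at D1, 0.26 at D30, and 0.39 at D180, and over all genes tested it was −0.01, −0.02, and −0.03. Groups without overlap followed the same order. At D1 the DQ-12 rats were all above the vehicle rats for Msr1 (5.23% of all genes) and all below for Mrc1 (5.96%), at D30 all above for Marco, Msr1, Cd68, and Cd5l (1.81%), and at D180 all above for Marco, Msr1, and Cd68 (3.82%) and all below for Cd163 (3.45%).

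**Figure D1:**
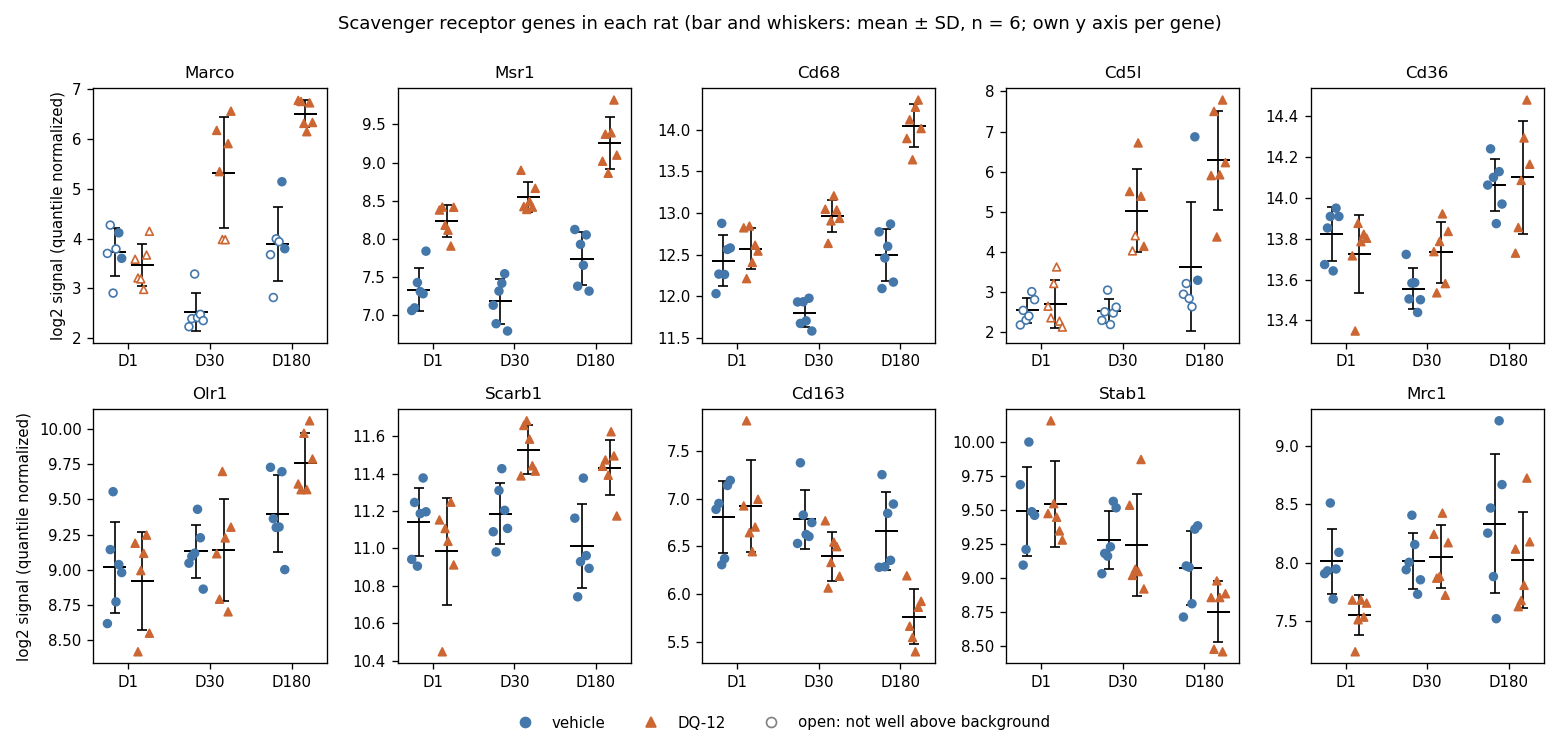
Log2 signal (y axis, quantile normalized, own scale for each gene) of the 10 scavenger receptor genes in each rat at D1, D30, and D180 (x axis). Circles are vehicle and triangles DQ-12 rats, open symbols are arrays where the probe was not well above background, and lines give mean ± SD (n = 6). Marco, Msr1, Cd68, and Cd5l separated at D30, and Cd163 lay lower in all 6 DQ-12 rats at D180.

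Marco, the class A receptor that binds silica directly, was close to the background at D1. Its log2 signal spanned 2.90 to 4.27 in vehicle rats (median 3.75), and DQ-12 rats spanned 2.98 to 4.15 (median 3.40), with 2 and 0 of 6 arrays well above background. At D30 vehicle rats were at 2.23 to 3.29 (median 2.40), none well above background, and DQ-12 rats at 3.98 to 6.56 (median 5.63), 4 of them well above. Every DQ-12 rat was above every vehicle rat, yet the exposed rats themselves spread over more than 2 log2 units, the lowest being replicates 3 and 4. No vehicle array measured the gene at D30. Against a floor, the lowest signal well above background on each array, the DQ-12 mean was 3.14-fold higher. The limma adjusted p of the difference without the floor was 3.32e-06. This floor is not a detection limit, since DQ-12 signals of up to 4.15 at D1 were not well above background. The DQ-12 mean includes arrays not well above background, and under normexp correction, given below, the fold was smaller. The study, whose processing differed, printed a Marco FC under 3.14 at D30 and also at D180. At D180 the DQ-12 rats lay close together, at 6.15 to 6.78 (median 6.53), all 6 well above background, and vehicle rats at 2.81 to 5.14 (median 3.87), 2 of 6 well above. The log2 FC at D180 was 2.62 ± 0.36 (SE, n = 6 per group, limma, adjusted p = 1.95e-06). The size depends on how the background is treated: with normexp correction the log2 FC was 0.69 at D30 and 0.88 at D180, both with an adjusted p under 0.05 but under a 2-fold change.

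Msr1, the other class A receptor, was the one gene of the family that was already higher at D1. Vehicle rats were at 7.06 to 7.84 (median 7.29) and DQ-12 rats at 7.90 to 8.41 (median 8.28) on that day, without overlap. The log2 FC was 0.90 ± 0.16 (SE, n = 6, limma, adjusted p = 0.000207), an FC of 1.87 and so below the threshold of a DEG, and 1.00 without vehicle replicate 6. With scan date as a fixed block the D1 adjusted p was 0.258, since 1 vehicle rat then carries the comparison, and within the shared date the DQ-12 rats were higher by 0.81. At D30 the vehicle range was 6.79 to 7.54 (median 7.22) against 8.38 to 8.90 with DQ-12 (median 8.45). At D180 it was 7.31 to 8.12 (median 7.79) against 8.86 to 9.82 (median 9.23). The groups were apart at both times, with a log2 FC of 1.37 at D30 (adjusted p = 1.29e-06) and 1.52 at D180 (adjusted p = 3.27e-08). Marco and Msr1 stand on a short list that the study drew from these same rats, so their rise at the late times is not independent evidence.

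The second Msr1 probe, whose coding sequence is printed above, gave the same picture. Its log2 FC was 1.01 at D1, 1.30 at D30, and 1.37 at D180, with adjusted p values over all 42200 probes of 0.00128, 0.000254, and 1.82e-05, and it therefore passed the 2-fold threshold at D1 as well, which 1.77% of all probes did in that direction. At D1 5 of 6 DQ-12 rats were above all vehicle rats on this probe, and at D30 and D180 6 of 6 were. The signals of both Msr1 probes correlated over the 36 arrays with r = 0.93, and with r = 0.65 after the mean of each group was subtracted.

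Cd68, the lysosomal glycoprotein, was well above background on all 36 arrays. At D1 the groups overlapped fully, at 12.03 to 12.88 in vehicle rats (median 12.41) and 12.21 to 12.84 with DQ-12 (median 12.58). At D30 vehicle rats were at 11.58 to 11.98 (median 11.82) and DQ-12 rats at 12.64 to 13.21 (median 12.98). At D180 the ranges were 12.09 to 12.87 (median 12.53) and 13.64 to 14.35 (median 14.06). The highest vehicle rat stayed below the lowest DQ-12 rat at both late times. The FC was 2.23 at D30 (log2 1.16 ± 0.15 SE, adjusted p = 2.89e-06) and 2.93 at D180 (log2 1.55 ± 0.15 SE, adjusted p = 2.28e-09; limma, n = 6).

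Cd5l, a protein secreted by tissue macrophages that supports their survival, was at the background in both groups at D1 (2.13 to 3.63 in all 12 rats, none well above background). At D30 vehicle rats remained at 2.20 to 3.05 (median 2.50), and DQ-12 rats were at 4.03 to 6.72 (median 4.90), 4 of 6 well above background. Against the floor described for Marco, the DQ-12 mean was 2.56-fold higher. The limma adjusted p of the difference without the floor was 0.00493. The DQ-12 mean includes arrays not well above background, and under normexp correction, given below, the fold was smaller. At D180 DQ-12 rats were at 4.38 to 7.78 (median 6.07), and 5 of 6 vehicle rats at 2.64 to 3.30. Vehicle replicate 5, at 6.87, was the exception, so that only 2 DQ-12 rats were above all vehicle rats. The log2 FC at D180 was 2.65 ± 0.55 (SE, adjusted p = 0.000591) and 3.30 without that rat. The SD among DQ-12 rats was 1.04 at D30 and 1.24 at D180, beside 1.12 and 0.28 for Marco. With normexp correction Cd5l was under 2-fold at both times (log2 FC 0.54 at D30, adjusted p = 0.155, and 0.86 at D180, adjusted p = 0.00283), and with median intensities it was not called at D30 (0.78, adjusted p = 0.0909).

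The slide offers a narrow check on the D180 values, because just 1 slide held a rat of each group. With slide as a fixed block Cd68 remained called at D180 (log2 FC 1.29, adjusted p = 0.0485), whereas Marco (2.84, adjusted p = 0.106), Cd5l (3.26, adjusted p = 0.105), and Msr1 (1.37, adjusted p = 0.05) were not. Within each scan date of D30 and D180 that held both groups, these 4 genes were higher with DQ-12. On the 1 such date of D1, with a single vehicle rat, Cd68 was lower with DQ-12 (by −0.30). The differences on the 2 dates of D30 were 2.36 and 3.55 for Marco, 1.21 and 1.33 for Msr1, 1.12 and 1.24 for Cd68, and 2.34 and 2.91 for Cd5l. On the 2 dates of D180 they were 2.75 and 3.92, 1.18 and 2.44, 1.27 and 2.26, and 3.11 and 4.57.

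**Figure D2:**
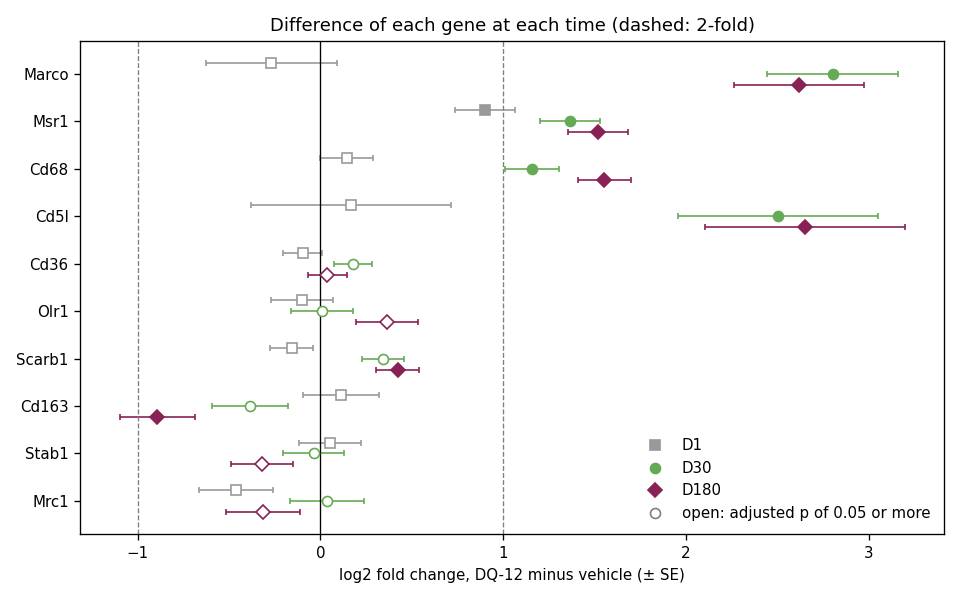
Log2 FC (x axis, DQ-12 minus vehicle, ± SE, n = 6 per group) of the 10 genes (y axis) at D1 (squares), D30 (circles), and D180 (diamonds). Filled symbols have an adjusted p under 0.05, and dashed lines mark an FC of 2. Marco, Msr1, Cd68, and Cd5l lie beyond the upper line at D30 and D180, and Cd163 at −0.89 at D180. The Marco and Cd5l values at D30 are set against vehicle rats at the background.

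Cd163, the receptor that clears haptoglobin-hemoglobin complexes, was the family member that fell. At D1 vehicle rats were at 6.31 to 7.19 (median 6.92) and DQ-12 rats at 6.45 to 7.81 (median 6.81). At D30 the ranges were 6.53 to 7.37 (median 6.69) and 6.07 to 6.77 (median 6.42), with 4 of 6 DQ-12 rats below all vehicle rats. At D180 they were 6.28 to 7.25 (median 6.60) and 5.40 to 6.19 (median 5.77). The groups no longer overlapped at D180, and Cd163 was lower there by a log2 FC of −0.89 ± 0.21 (SE, adjusted p = 0.00191), an FC of 1.86 that is below the threshold of a DEG. The D30 value of −0.39 did not pass (adjusted p = 0.373). Cd163 was lower with DQ-12 within both shared scan dates at D180 (by −0.67 and −1.38), and with slide as a fixed block, which rests on 1 rat of each group, the value was −0.65 (adjusted p = 0.696).

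The other endocytic receptors did not pass at any time. Stab1, which takes up acidic proteins and debris, lay at 8.71 to 10.00 in vehicle and 8.46 to 10.15 in DQ-12 rats over the 3 times, with log2 FCs of 0.05, −0.04, and −0.32 (adjusted p = 0.884, 0.974, and 0.22). Mrc1, the mannose receptor of alternatively activated macrophages, was at 7.69 to 8.51 in vehicle and 7.24 to 7.68 in DQ-12 rats at D1. Those groups did not overlap, but the gene did not pass over all genes (log2 FC −0.46 ± 0.20 SE, adjusted p = 0.122). With slide as a fixed block, which sets 1 vehicle rat against 4 DQ-12 rats of the same slide, the D1 value was −1.02 (adjusted p = 0.03). The Mrc1 log2 FC was 0.04 at D30 and −0.31 at D180 (adjusted p = 0.98 and 0.341). Vehicle rats of D180 spread over 7.52 to 9.21 for Mrc1, its widest range. Olr1, which binds oxidized lipoprotein, had log2 FCs of −0.10, 0.01, and 0.36 (adjusted p = 0.755, 0.997, and 0.154). Its signal lay at 8.62 to 9.73 in vehicle and 8.42 to 10.06 in DQ-12 rats.

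The class B receptors were each read by several probes. Cd36, a fatty acid and lipoprotein receptor that in lung is also abundant on capillary endothelium, had 3 probes. The probe used for the gene, near the 3′ end of the transcript and printed on the array 10 times, was at 13.44 to 14.24 in vehicle and 13.35 to 14.48 in DQ-12 rats. Its log2 FCs were −0.10, 0.18, and 0.04, each overlapping and not passing (adjusted p = 0.591, 0.446, and 0.872). The other probes sit near the 5′ ends of 2 transcript records. They share the last 21 of their 60 bases and differ in the 39 before, of which 10 coincide, and so read different starts joined to the same following sequence.

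One of these 5′ probes changed with DQ-12. A_44_P1144488, 8 bases into its record, was at 6.31 to 7.14 in vehicle rats at D30 and 7.17 to 7.96 in DQ-12 rats, and at D180 at 6.54 to 6.97 and 7.03 to 7.44, without overlap at either time. Its log2 FC was 0.84 at D30 (adjusted p over all probes = 0.000896) and 0.55 at D180 (adjusted p = 0.0126), and 0.20 at D1 (adjusted p = 0.442). Of all probes, 1.87% were higher at D30 and 6.48% at D180 by adjusted p alone. Its sister probe A_44_P1144483 had log2 FCs of 0.20, 0.45, and 0.30 and did not pass at any time (adjusted p = 0.493, 0.182, and 0.298). Over the 36 arrays the 5′ probes correlated with each other with r = 0.60, and with the 3′ probe with r = 0.09 for A_44_P1144488 and 0.11 for A_44_P1144483. Whether the 5′ probes differed from the 3′ probe in their response was not tested.

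Scarb1, the receptor of high-density lipoprotein, spanned 10.74 to 11.38 in vehicle rats at D180 (median 10.95) and 11.17 to 11.62 with DQ-12 (median 11.46), with 5 of 6 exposed rats above all vehicle rats. The log2 FC was 0.42 ± 0.12 (SE, adjusted p = 0.00977), an FC of 1.34, after −0.16 at D1 and 0.34 at D30 (adjusted p = 0.401 and 0.0999). The adjusted p was no longer under 0.05 with scan date as a fixed block (limma, log2 FC 0.40, adjusted p = 0.0563). With slide as a fixed block, where a single slide held a rat of each group at D180, the log2 FC was 0.06. A second Scarb1 probe, in coding sequence, gave 0.45, −0.30, and 0.55, none past the threshold (adjusted p = 0.176, 0.617, and 0.0885). Both probes were higher with DQ-12 at D180 and opposite in sign at D1 and D30, a difference that was not tested, and their signals over the 36 arrays had an r of 0.01.

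**Figure D3:**
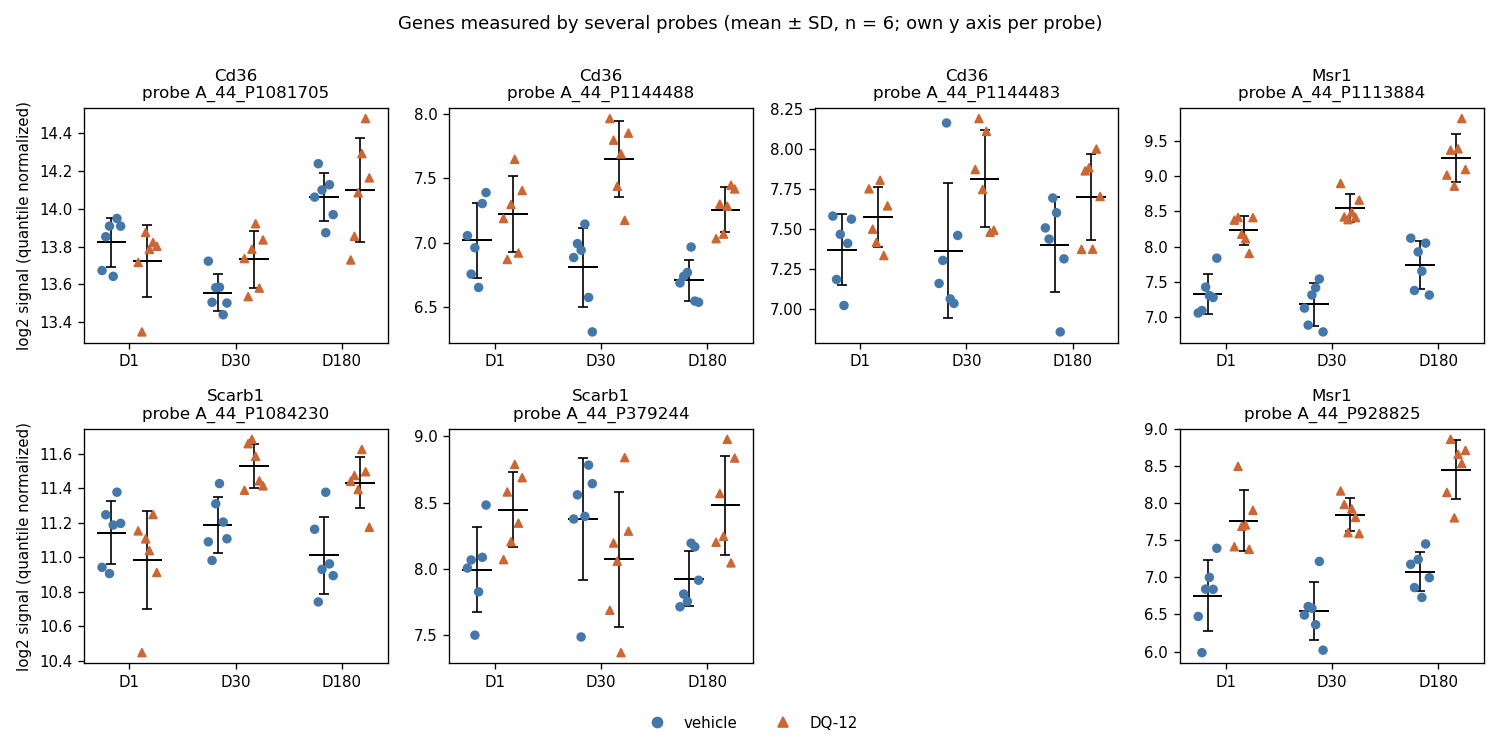
Log2 signal (y axis, quantile normalized, own scale for each probe) by rat at D1, D30, and D180 (x axis) for the 3 genes read by several probes, with mean ± SD (n = 6). Circles are vehicle and triangles DQ-12 rats. Both Msr1 probes separated at D30 and D180, and at both times the Cd36 groups did not overlap on A_44_P1144488 and overlapped on the 3′ probe A_44_P1081705.

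The change with DQ-12 differed between times for 4 of the genes. Between D1 and D30 the difference passed for Marco (3.07, adjusted p = 0.000546) and Cd68 (1.02, adjusted p = 0.00592), 2 of 10 against 2.18% of all genes. Between D1 and D180 it passed for Marco (2.89, adjusted p = 0.000664), Cd68 (1.41, adjusted p = 8.5e-05), Cd163 (−1.005, adjusted p = 0.0396), and Scarb1 (0.58, adjusted p = 0.0368), against 4.55% of all genes. Between D30 and D180 it passed for 0 of 10, where 0.246% of all genes passed. The Marco sizes rest on groups at the background. Msr1 and Cd5l, called at both late times, did not pass a difference from their D1 changes. For Msr1 the limma adjusted p was 0.322 at D30 and 0.126 at D180, and for Cd5l 0.107 and 0.0576. With scan date as a fixed block, the differences that had passed no longer did so, except that of Cd68 between D1 and D180. The D1 comparison then rests on 1 vehicle rat.

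Vehicle levels differed between times for Cd68, which was lower at D30 than at D1 (log2 difference −0.63, adjusted p = 0.00896; 6.53% of all genes differed in either direction). Marco was well above background in 2 of 6 vehicle rats at D1 and in 0 of 6 at D30, so no change over time is given for it. Vehicle rats of D1 and D30 were not scanned on the same dates, so age and scan date cannot be told apart here. For Cd68 the DQ-12 mean was 12.57 at D1 and 12.96 at D30, and the vehicle mean 12.43 and 11.80, so that both groups contributed to its log2 FC at D30.

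Genes with the most similar signals over the 36 arrays included known macrophage genes for the receptors that rose. For Msr1 the closest were Lgals3 (r = 0.94), which encodes galectin 3, Mreg (r = 0.94), and Gpnmb (r = 0.94), a lysosomal glycoprotein of macrophages. For Cd68 they were Bhlhe41, Lgals3 (both r = 0.94), and Gpnmb (r = 0.93), and for Gpnmb the correlation with Cd68 was still 0.78 once group means were subtracted. Marco was closest to Ceacam4 (r = 0.90), Hp (0.87), and Fcgr2a (0.87), and Cd5l to Ly96 (0.88), Fcgr2a (0.86), and Ceacam4 (0.86). The r of Marco with these genes was 0.35 to 0.44 within groups, so most of the likeness lay between groups. All arrays share the group differences, and the correlations are descriptions.

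The remaining genes had other neighbors. Cd163 was closest to Nebl (r = 0.80), Cavin3 (0.78), and LOC103693001 (0.77), Stab1 to Mxra8, Smtn, and Tnxb (0.83 to 0.85), which are genes of connective tissue and smooth muscle, and Mrc1 to Abhd5, LOC691658, and N4bp2l2 (0.78 to 0.84). Cd36 was closest to Odr4, Coa6, and Dera (0.81 to 0.84), Olr1 to LOC681325, Plekhm3, and Arl8b (0.79 to 0.85), and Scarb1 to Ptpn2, Ppil1, and Tgfbr1 (0.80 to 0.81). Within the family, Msr1 and Cd68 had the highest r (0.90, and 0.63 within groups), and Cd163 and Cd68 were opposed (−0.72, and −0.33 within groups). Marco and Cd68 had an r of 0.85 between them but 0.12 within groups.

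Several general macrophage markers were also higher with DQ-12. Over the 36 arrays, their mean had an r of 0.70 with Marco, 0.83 with Msr1, 0.80 with Cd68, and 0.60 with Cd5l. Within groups, the r was 0.28 with Marco, 0.26 with Msr1, 0.06 with Cd68, and 0.26 with Cd5l. Of 10 general macrophage markers not among the genes above, 4 were higher by adjusted p alone at D1, 6 at D30, and 6 at D180. Of all genes, 7.58, 2.74, and 7.82% were. At D180 2 of the markers were DEGs (2.86% of all genes called higher), and the median log2 FC was 0.33, 0.51, and 0.69. All 10 were well above background on every array. Lyz2, which encodes lysozyme, had log2 FCs of −0.03, −0.02, and 0.04, and Cd14 rose by 0.73, 0.68, and 1.33 (these and the markers named next were picked after their values were seen). The mean of their log2 signals was 11.56 to 11.69 in vehicle and 11.80 to 12.13 in DQ-12 rats at D1, 11.21 to 11.54 and 11.55 to 11.99 at D30, and 11.36 to 11.71 and 12.17 to 12.40 at D180, without overlap at any time. The log2 of their summed intensities, which the brightest probes dominate, overlapped at D1 (18.40 to 18.45 and 18.30 to 18.48) and D30 (18.26 to 18.42 and 18.37 to 18.50) and not at D180 (18.39 to 18.45 and 18.55 to 18.70). Of 6 alveolar macrophage markers, 2 were DEGs at D30 (0.915% of all genes) and 3 at D180 (2.86%), all higher, led by Fabp4 and Atp6v0d2. Pparg had a log2 FC of −0.09 at D180 (limma, adjusted p = 0.658). Of 6 interstitial macrophage markers, 1, 0, and 2 were DEGs at D1, D30, and D180, all higher. The shares of all genes called higher were 2.02, 0.915, and 2.86%. By adjusted p alone, 3 of the 6 were higher (7.82% of all genes) and 2 lower (9%) at D180. The part of these cells in the receptor changes was not tested.

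Markers of other cell types changed too. Of 8 neutrophil markers, 1, 2, and 4 were DEGs at D1, D30, and D180, all higher, against 2.02, 0.915, and 2.86% of all genes. Of 6 monocyte markers, 3 were higher at D1 (median log2 FC 0.66), 0 at D30 (0.14), and 3 at D180 (0.54) by adjusted p alone. Of all genes, 7.58, 2.74, and 7.82% were. Of 6 heart and skeletal muscle markers, 0 passed at D1 and D30 (median −0.22 and −0.44). At D180 2 of them were lower by adjusted p alone (median −0.67), against 9% of all genes. Of 8 endothelial markers, 7 were lower at D180 by adjusted p alone (median log2 FC −0.61), against 9% of all genes. This stood beside the lower Cd163 and a 3′ probe of Cd36 that did not pass. The log2 of the summed endothelial intensities was 16.95 to 17.13 in vehicle and 16.11 to 16.83 in DQ-12 rats at D180. The part of these cells in the Msr1, Cd163, and Cd36 values was not tested.

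Of 17 further scavenger receptors, 16 were tested and 0 were DEGs at any time, beside 2.02, 0.915, and 2.86% of all genes called higher, a count that says nothing particular about so few genes. Some passed on adjusted p alone (0 higher and 2 lower at D1, 2 and 0 at D30, 2 and 2 at D180; limma). The median log2 FC was −0.05, 0.04, and 0.10. Cd44, the hyaluronan receptor, was at 12.31 to 12.68 in vehicle and 12.99 to 13.34 in DQ-12 rats at D180, a log2 FC of 0.63 (adjusted p = 6.29e-05), and rose by 0.37 at D30 (adjusted p = 0.0465). Scarb2, a lysosomal relative of Cd36, rose by 0.57 at D180 (adjusted p = 0.0219). Ager, the alveolar epithelial receptor of advanced glycation products, had a log2 FC of −0.42 at D180 (adjusted p = 0.00693), with all 6 DQ-12 rats below the vehicle rats.

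Receptors and bridging proteins for apoptotic cells showed a single DEG among 14, at D30 and D180, against 0.915 and 2.86% of all genes called higher. Havcr2, which encodes the phosphatidylserine receptor TIM-3, was at 5.73 to 6.79 in vehicle and 7.45 to 8.49 in DQ-12 rats at D30, and at 5.88 to 6.99 and 7.53 to 8.71 at D180. Its log2 FC was 1.499 (adjusted p = 2.01e-05) and 1.70 (adjusted p = 3.84e-07), after 0.55 at D1 (adjusted p = 0.0701). By adjusted p alone 3 of the 14 were lower at D1 (8.62% of all genes) and 3 at D180 (9%). The receptor tyrosine kinase gene Mertk and its ligand gene Gas6 were among them at both times, with log2 FCs of −0.67 and −0.50 at D1 and −0.41 and −0.34 at D180 (both named after their values were seen). The median of the 14 was −0.13, 0.03, and 0.02.

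Ligands and partners that handle them rose as well. Of 14, 7 were higher by adjusted p alone at D1, 7 at D30, and 8 at D180, against the 7.58, 2.74, and 7.82% of all genes given above. Of the 14, 0, 3, and 4 were DEGs, against 2.02, 0.915, and 2.86% of all genes called higher. The median log2 FC was 0.37, 0.39, and 0.47. Haptoglobin (Hp), which carries hemoglobin to Cd163, was at 11.60 to 12.24 in vehicle and 12.72 to 13.42 in DQ-12 rats at D30 and at 11.75 to 12.40 and 12.97 to 14.11 at D180, with log2 FCs of 1.05 (adjusted p = 6.09e-05) and 1.496 (adjusted p = 2.45e-08). Hp is on the study's own list from these rats. Hemopexin (Hpx), the carrier of free heme, rose by 0.94, 1.43, and 1.87, and heme oxygenase (Hmox1), which degrades the heme taken up, by 0.74, 0.995, and 1.55. These 3 genes of heme handling were thus higher at D180 while Cd163 was lower. Fabp4, which binds fatty acids imported by Cd36, rose by 0.88, 1.12, and 2.53, and at D180 the DQ-12 rats (10.42 to 11.76) stood clear of the vehicle rats (8.21 to 9.22). It is also an alveolar macrophage marker in the list above and is expressed in endothelium and fat.

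Of 13 transcription factors and growth factor receptors of macrophages, 0, 0, and 2 were DEGs at D1, D30, and D180, both higher. Of all genes, 2.02, 0.915, and 2.86% were called higher. By adjusted p alone 1, 2, and 7 of the 13 were higher (limma), against 7.58, 2.74, and 7.82% of all genes. The median log2 FC was 0.08, 0.35, and 0.48. Bhlhe41, which maintains alveolar macrophage identity, rose by 0.90 at D30 and 1.57 at D180 (adjusted p = 0.0004 and 7.62e-09). It is also an alveolar macrophage marker in the list above, so the lists overlap. Csf2ra, the receptor chain for GM-CSF, rose by 1.04 at D180 alone (adjusted p = 0.00016). Vehicle replicate 1 of D1 was high for it, at 9.02.

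**Figure D4:**
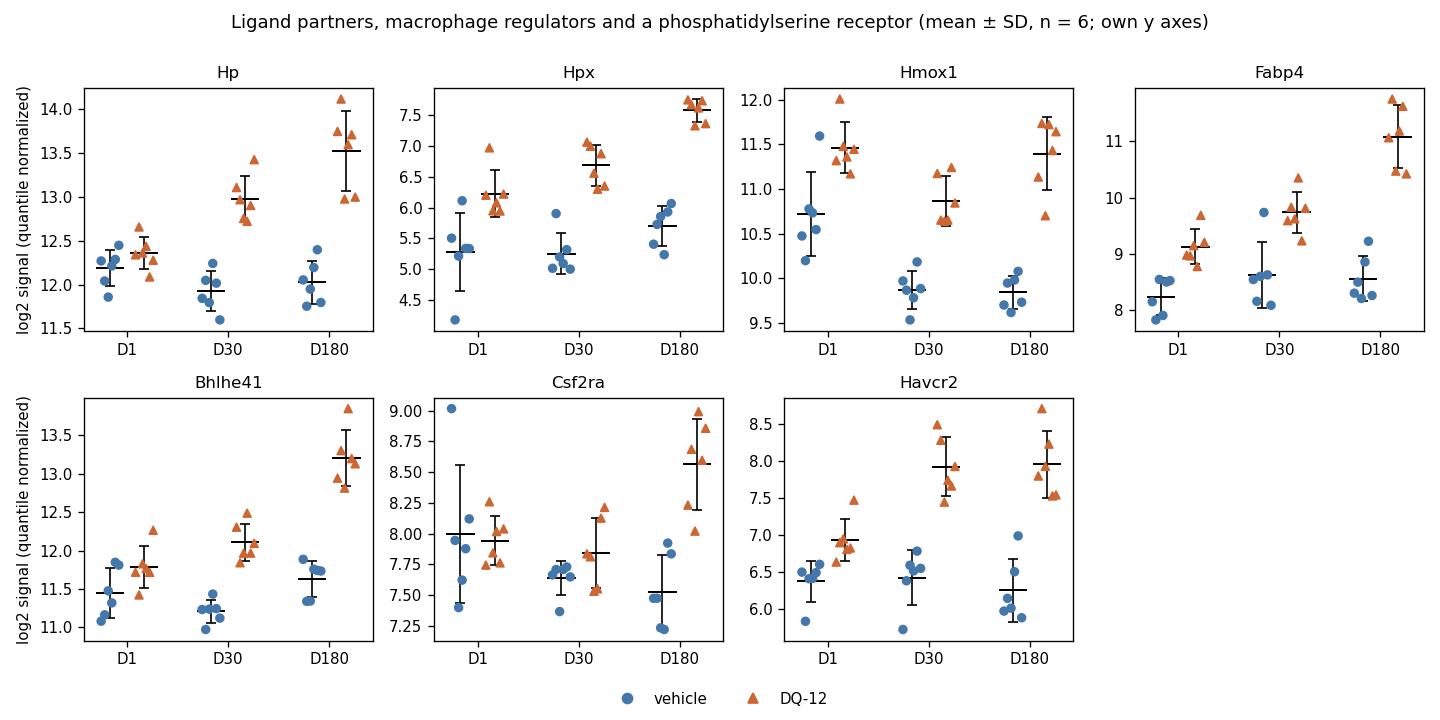
Log2 signal (y axis, quantile normalized, own scale for each gene) by rat at D1, D30, and D180 (x axis) of ligand partners (Hp, Hpx, Hmox1, Fabp4), macrophage regulators (Bhlhe41, Csf2ra), and the receptor Havcr2, with mean ± SD (n = 6). Circles are vehicle and triangles DQ-12 rats. All 7 genes were higher in DQ-12 rats at D180, without overlap between the groups. The 7 were shown because each was called at some time in these data, so their rise is not separate evidence.

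Promoter sequences from RefSeq (GRCr8) were found for 8 of the 10 genes, from 250 bases before to 50 after the start. The 6 letters GAGGAA, a core recognized by PU.1 and other ETS factors that drive macrophage genes, were found on either strand in 7 of the 8 (Marco, Cd36, Cd68, Olr1, Stab1, Cd5l, and Mrc1), against 27.6% of all 33469 promoters, and not in the Cd163 window. They occur both in genes that rose and in genes that did not. The AP-1 letters TGANTCA were found in Cd68, at −205 and −80, and in Olr1, at −30 (7.33% of all promoters). TGACNNNGC, the antioxidant response element (12.1%), and the C/EBP letters TTGCNNAA (10.6%) matched none of the 8. No matched stretches overlapped. A match describes letters in this window.

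The 250 bases before the start are shown for 3 genes that rose and for Cd163, with matches in capitals.
Marco, chr13:34201256-34201505, minus strand: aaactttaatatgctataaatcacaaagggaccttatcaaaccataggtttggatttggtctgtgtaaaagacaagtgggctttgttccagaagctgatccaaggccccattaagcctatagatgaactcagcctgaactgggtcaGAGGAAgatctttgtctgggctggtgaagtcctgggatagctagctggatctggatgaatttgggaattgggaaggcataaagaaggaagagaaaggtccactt
Cd68, chr10:54882442-54882691, minus strand: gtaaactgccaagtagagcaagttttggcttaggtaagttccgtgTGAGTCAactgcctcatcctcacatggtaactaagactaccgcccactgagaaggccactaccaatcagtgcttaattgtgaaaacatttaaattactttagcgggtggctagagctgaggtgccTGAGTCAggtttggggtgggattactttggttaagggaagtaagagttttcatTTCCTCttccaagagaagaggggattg
Cd5l, chr2:175088665-175088914, plus strand: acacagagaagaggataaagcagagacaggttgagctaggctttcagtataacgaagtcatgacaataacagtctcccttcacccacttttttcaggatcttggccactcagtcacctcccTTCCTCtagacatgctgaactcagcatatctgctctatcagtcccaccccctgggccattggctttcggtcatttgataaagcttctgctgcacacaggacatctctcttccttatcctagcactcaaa
Cd163, chr4:158770524-158770773, plus strand: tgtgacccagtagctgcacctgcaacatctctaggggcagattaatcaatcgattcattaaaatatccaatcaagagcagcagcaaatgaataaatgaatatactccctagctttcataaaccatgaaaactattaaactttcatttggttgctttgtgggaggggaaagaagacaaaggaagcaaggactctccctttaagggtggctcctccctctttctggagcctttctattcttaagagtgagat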

How the data were processed

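The array files deposited by the authors (Feature Extraction 12.0.1.1, protocol GE1_1200_Jun14) hold intensities per spot, and the authors' deposited table holds log2 values that equal log2 background-corrected intensity minus the array's 75th percentile, centered on each probe's median (median absolute difference 0.00173 over 861630 values). Outlier-flagged spots (232 to 596 per array) were left out, spots of a probe averaged, and probes kept above the 95th percentile of 308 negative controls on at least 6 arrays, then quantile normalized. The brightest probe stood for each gene. One limma model (limma 3.58.1, R 4.3.3) with 6 group means gave 2-sided tests. No batch term entered, since the study does not name its batch variable, and the number of arrays limits precision. The model thus treats arrays as independent. Fitted as a random block, slide had an intra-block correlation of 0.39 and scan date 0.25. Each array is a separate rat. Where no array of a group was well above background, folds are set against a floor, the lowest signal well above background on each array. This floor is not a detection limit, and such folds hold for this background handling alone. The genes and lists were chosen with earlier results of these data known. Named were all 10 genes, list genes called at any time (otherwise 3 per list by adjusted p at D180), and 3 closest genes each. Alternatives changed intensity, background, scaling, filter, probe summary, moderation, blocks, and thresholds, and left out each rat. Scripts were tested on simulated data. A gene of a list is not reported here.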

Additional observations from a re-analysis of the deposited data

Results flagged for a closer look

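Of 60 sets of 6 rats (10 genes in 6 groups), 5 had a rat far from the others, where chance alone flags about 1 in 20 sets. These were Marco in vehicle replicate 3 of D30 (log2 signal 3.29, next 2.48), Cd36 in DQ-12 replicate 2 of D1 (13.35, next 13.72), Cd163 in vehicle replicate 2 of D30 (7.37, next 6.83), Stab1 in DQ-12 replicate 2 of D1 (10.15, next 9.54), and Cd5l in vehicle replicate 5 of D180 (6.87, next 3.30). The same DQ-12 rat of D1 held the Cd36 and Stab1 values. It also had the highest Cd163 (7.81) and Msr1 (8.41) of its group. Its Scarb1 (10.45), Cd68 (12.21), Olr1 (8.42), and Mrc1 (7.24) were the lowest of the group. Without it the number of genes whose change differed between D1 and D180 was 2 rather than 4. Vehicle replicate 5 of D180 also had the highest vehicle value of that day for Marco (5.14), Cd68 (12.87), and Mrc1 (9.21). For the other genes besides Cd5l it did not.

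The change with DQ-12 differed between time points in 6 tests of limma interactions. Against D1, the log2 change was larger at D30 by 3.07 for Marco (adjusted p = 0.000546) and 1.02 for Cd68 (adjusted p = 0.00592), and at D180 by 2.89 for Marco (adjusted p = 0.000664), 1.41 for Cd68 (adjusted p = 8.5e-05), and 0.58 for Scarb1 (adjusted p = 0.0368), and for Cd163 the difference was −1.005 (adjusted p = 0.0396). The Marco differences rest on groups in which no array was well above background (DQ-12 at D1, vehicle at D30).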

How the results depend on the processing

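Of these 10 genes, 0, 4, and 4 were called at D1, D30, and D180, and the change with DQ-12 differed for 2 between D1 and D30, for 0 between D30 and D180, and for 4 between D1 and D180. With normexp correction 2 were called at D30 and 2 at D180 (Msr1 and Cd68). With slide as a fixed block 1 was called at D1 (Mrc1, lower) and 1 at D180 (Cd68), and 0 and 1 differed between D1 and D30 and between D1 and D180. With scan date as a fixed block these were 0 and 1. Between D1 and D180, 2 differed with scan date as a random block and 2 with every probe tested on its own. At a fold of 1.5 or by adjusted p alone, 1 gene (Msr1) was called at D1. The other alternatives gave counts within 1.5 times of these, none of the log2 changes reversed direction while passing the threshold, and the median log2 change of all genes moved by less than 0.1 with 75th percentile scaling.

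Leaving out each rat in turn left 4 called at D30 and 4 at D180, 0 to 1 at D1 (Msr1 without vehicle replicate 6 of D1), 2 to 3 differing between D1 and D30, 0 between D30 and D180, and 2 to 5 between D1 and D180. That last count was 2 without vehicle replicate 4 or DQ-12 replicate 2 or 6 of D1, vehicle replicate 2 or 6 of D180, or DQ-12 replicate 2 or 4 of D180. With a replicate block 0, 4, and 4 were called and 2, 0, and 4 differed, and over all genes 742, 258, and 886 were called against 736, 252, and 869. Deviations from the group mean in rats of the same number had r of −0.13 to 0.22, over 0.1 in 6 of 18 pairs. The labels do not say whether the numbers pair rats, and these r cannot decide it. Marco and Cd5l lay near the background in vehicle rats, which limits their folds.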
